A study of Mus musculus with 24 samples.

Results

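Neuropeptide precursor genes were followed across 24 RNA-seq libraries of mouse embryos at E14.5 (embryonic day). The set was 10 of the 54446 genes in the count tables. Members were named by gene: *Sst*, *Npy*, *Tac1*, *Penk*, *Pdyn*, *Nts*, *Cartpt*, *Gal*, *Trh* and *Adcyap1*, each matched by its Ensembl identifier. The 12 embryos were homozygous for a *Tfap2b* allele broken by a neomycin resistance cassette (PGK-neo) in an exon (*Tfap2b*-/-), or were their wild-type littermates (*Tfap2b*+/+), all from crosses of heterozygous mice, with 3 embryos of each sex and genotype. The allele is constitutive, carried by every cell of the embryo and not by brain alone. From each embryo the secondary prosencephalon (SP) and the diencephalon, midbrain and hindbrain (DMH) were dissected, giving 1 library per region and 8 groups of 3.

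Neuropeptides are cut from longer precursor proteins in the secretory pathway, stored in dense core vesicles and released to act on G protein-coupled receptors. Neurons usually release them beside a fast transmitter such as GABA or glutamate. Several of them act in circuits of sleep and arousal, and in *C. elegans* the AP-2 factor related to *Tfap2b* is needed for a sleep-inducing neuron to make its peptides. In bulk tissue, fewer cells that express a gene and less RNA per cell cannot be told apart.

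*Sst*, at chr16:23889573-23890958 on the minus strand (GRCm38), encodes somatostatin, an inhibitory peptide of GABAergic interneurons. *Npy*, at chr6:49822710-49829507 on the plus strand, encodes neuropeptide Y. *Tac1*, at chr6:7554879-7565834 on the plus strand, encodes the tachykinins substance P and neurokinin A. *Penk*, at chr4:4133531-4138819 on the minus strand, encodes the enkephalins, and *Pdyn*, at chr2:129686565-129699844 on the minus strand, the dynorphins, both opioid peptides. *Nts*, at chr10:102481756-102490486 on the minus strand, encodes neurotensin. *Cartpt*, at chr13:99898489-99901091 on the minus strand, encodes CART peptides. *Gal*, at chr19:3409915-3414544 on the minus strand, encodes galanin. *Trh*, at chr6:92242061-92244650 on the minus strand, encodes thyrotropin-releasing hormone. *Adcyap1*, at chr17:93199017-93206537 on the plus strand, encodes PACAP. *Penk* overlaps an annotated gene on the opposite strand, *A830012C17Rik*, and the counts used here are those of the strand that these libraries read. The other 9 members overlap no annotated gene.

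The 250 bases before the RefSeq start are shown for *Npy*, *Pdyn* and *Gal*, which are 3 of the 4 members that differed with the Hox content of DMH described further on. The windows are from GRCm38.p6, 5′ to 3′ along the gene, at chr6:49822460-49822709 on the plus strand, chr2:129699939-129700188 on the minus strand and chr19:3414545-3414794 on the minus strand.

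Npy: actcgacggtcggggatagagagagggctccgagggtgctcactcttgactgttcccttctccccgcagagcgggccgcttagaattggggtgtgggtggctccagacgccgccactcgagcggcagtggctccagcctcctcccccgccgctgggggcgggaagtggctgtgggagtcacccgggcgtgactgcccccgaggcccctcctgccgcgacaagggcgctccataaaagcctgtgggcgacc

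Pdyn: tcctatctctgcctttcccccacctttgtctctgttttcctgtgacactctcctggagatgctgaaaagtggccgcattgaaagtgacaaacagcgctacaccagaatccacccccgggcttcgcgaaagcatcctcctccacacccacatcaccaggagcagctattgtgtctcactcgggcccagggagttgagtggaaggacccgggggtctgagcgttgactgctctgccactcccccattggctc

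Gal: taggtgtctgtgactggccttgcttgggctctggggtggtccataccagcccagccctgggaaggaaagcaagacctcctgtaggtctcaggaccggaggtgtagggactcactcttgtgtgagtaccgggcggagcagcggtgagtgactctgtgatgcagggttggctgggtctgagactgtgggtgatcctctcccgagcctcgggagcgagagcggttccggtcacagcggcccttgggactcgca

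None of these 3 windows holds a match, on either strand, to the 4 motifs searched, so they carry no capitals. The motifs were the AP-2 palindrome GCCNNNGGC, the cyclic AMP response element TGACGTCA, the E-box CACGTG and the TATA element TATAAA. Windows were present for 9 of the 10 members, 11 windows in all. GCCNNNGGC was found in 0 of the 9 members and in 13.7% of the 32851 windows of the same length in the genome. TGACGTCA was found in *Sst* and *Cartpt*, against 1.55% of all windows. CACGTG was found in *Tac1*, against 6.02% of all windows, and TATAAA in the second start of *Adcyap1*, against 12.4%. The matches of *Sst*, *Cartpt* and *Tac1* are shown, and that of *Adcyap1* is not, with 10 bases on each side and the match in capitals. They lie at chr16:23890875-23890902 on the minus strand, chr13:99900778-99900805 on the minus strand and chr6:7554990-7555015 on the plus strand. Their matches begin 48, 112 and 61 bases before the start of *Sst*, *Cartpt* and *Tac1*.

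Sst: cctccttggcTGACGTCAgagagagagt

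Cartpt: cggcgggcatTGACGTCAaacggcagcg

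Tac1: gggagagtgtCACGTGgctctacagg

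The libraries held 24.7 to 66.8 M fragments counted on genes, with a median of 32.1 M. Levels are CPM, the counts of a gene relative to the size of its library, with sizes set by edgeR's TMM method over the 24 libraries. A count of 3, taken as the floor of detection, equals 0.0449 to 0.121 CPM, and this floor covers counting error only. *Tfap2b* itself checked the labels in DMH, at 277 to 438 CPM in the 6 controls and 50.5 to 55.6 CPM in the 6 mutants. In SP it was low in every library, at 2.78 to 4.90 CPM. Genotype was therefore checked by its own transcript in DMH only. The summed CPM of 7 telencephalic marker genes was 1450 to 2658 in SP and 105 to 210 in DMH. Hypothalamic markers, 9 genes, summed to 77.0 to 174 CPM in DMH and 28.5 to 86.1 CPM in SP, so the ranges overlapped. Caudal Hox genes were near the floor in SP, at 0 to 0.173 CPM for the sum of 15 genes.

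Libraries that stand apart touch these results in 3 ways. The DMH library of the third female mutant (female mut3), an embryo the study left out, held 688 CPM of 8 skeletal muscle markers against 6.22 to 8.93 CPM in the other DMH libraries. It also held 3894 CPM of cartilage and mesenchyme markers. This embryo was left out of the fits, which leaves 22 libraries. Female control 2 carried Y-linked transcripts against its label, and was kept as labelled. The DMH pieces fell into separate ranges of caudal Hox RNA. In 4 of them, female control 1, female mutants 1 and 2 and male mutant 2, the sum of 15 Hox genes was 0.0380, 0.951, 0.106 and 15.01 CPM, and in the other 8 it was 346 to 543 CPM. A value of 100 CPM separates these as Hox-low and Hox-rich pieces, samples defined by their counts and not groups of the study. The pieces nearest to that value were at 15.01 and 346 CPM. The 15 Hox genes are those the study lists for hindbrain patterning among genes lower in its female *Tfap2b*-/- DMH. That is a result from these same libraries.

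All 10 genes were detected in DMH, and 9 of 10 in every SP library. The exception was *Cartpt* in SP, with 0 to 10 counts in controls and 1 to 15 in mutants.

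Between genes, levels can be compared per kilobase of exon (CPM per kb), a level and not a difference. In SP of *Tfap2b*+/+ embryos *Sst* led at 49.7 CPM per kb (range 42.7 to 57.8, n = 6), followed by *Npy* at 17.4 (14.7 to 19.1) and *Nts* at 9.05 (8.57 to 10.4). These 3 did not overlap each other or any gene after them. *Penk* at 2.49 CPM per kb and *Tac1* at 2.38 overlapped, as did *Adcyap1* at 1.04, *Pdyn* at 0.638, *Gal* at 0.606 and *Trh* at 0.565. *Cartpt* was last at 0.118 CPM per kb (0 to 0.258), below every library of the other 9.

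In DMH of the same embryos *Sst* was again first, at 48.0 CPM per kb (44.0 to 53.4), above every library of the others. *Npy* at 28.4 (17.7 to 33.1) and *Penk* at 14.6 (4.88 to 19.9) came next and overlapped each other. *Adcyap1* followed at 4.39 CPM per kb, overlapping *Penk* only at the latter's lowest library, female control 1. From *Tac1* at 3.75 through *Pdyn* at 3.09, *Gal* at 2.83, *Cartpt* at 2.79 and *Nts* at 2.49 to *Trh* at 1.64, each gene overlapped its neighbour in the order. *Nts* went from the third place in SP to the ninth in DMH, and *Cartpt* from the last to the eighth.

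**Figure D1:**
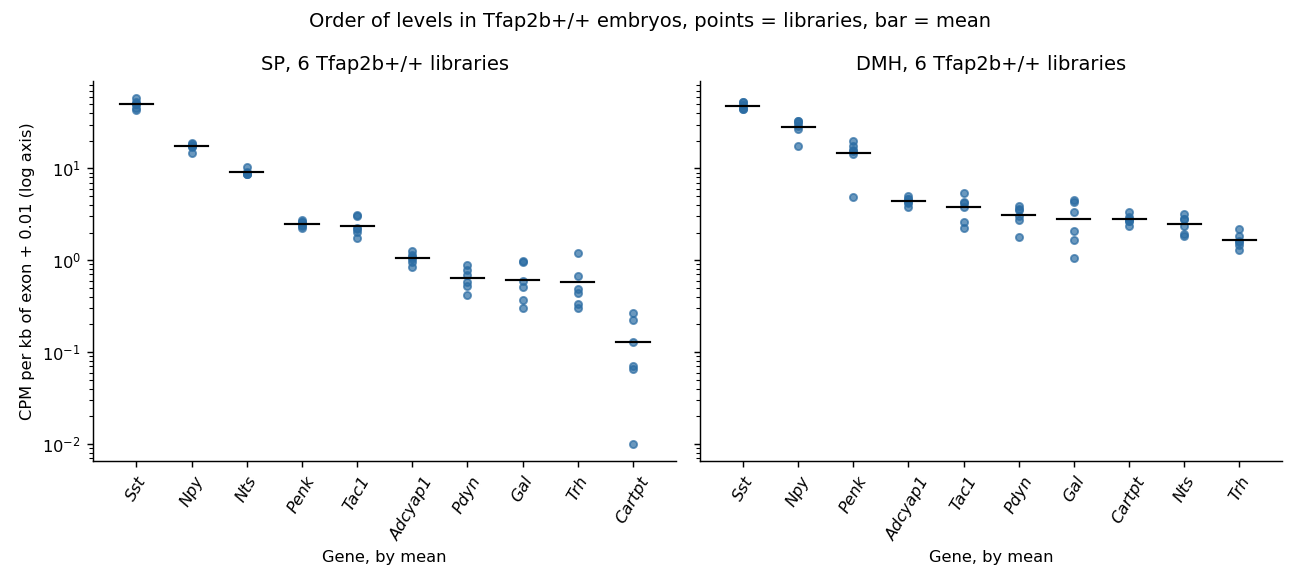
CPM per kb of exon on a log axis for the 10 genes in the 6 SP and the 6 DMH libraries of *Tfap2b*+/+ embryos, with 0.01 added so that 0 can be drawn. Points are libraries, bars are means and genes are ordered by mean; *Sst* is first in both regions, at 49.7 and 48.0 CPM per kb before the addition.

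The regions were first compared within *Tfap2b*+/+ embryos, 6 DMH against 6 SP libraries. Of the 10 members 8 were higher and 1 lower in DMH (edgeR quasi-likelihood test, FDR under 0.2 and absolute log2 fold change over 0.5). The same thresholds were passed by 35.9% of all 17196 genes tested, 21.2% higher and 14.7% lower. The median log2 fold change was 1.80 over the members and -0.00293 over all genes. Values of 7 members did not overlap between the regions, against 40.4% of all genes. Markers of tissue outside the brain wall moved with region in the same libraries: sensory ganglia markers summed to 6.41 to 15.5 CPM in SP and 25.3 to 134 CPM in DMH, pituitary markers to 0 to 0.0659 and 2.18 to 2.79 CPM, and retina and lens markers to 0.0988 to 0.577 and 3.87 to 7.15 CPM. Their part in the differences by region was not tested.

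*Cartpt* had the largest fold difference. Its level in SP was 0, 0.115 and 0.329 CPM (lowest, median, highest) and in DMH 2.97, 3.51 and 4.29 CPM. The fitted log2 fold change was 4.504 ± 0.306 (SE; adjusted p = 9.15e-09), and it rests on 0 to 10 counts per SP library.

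The opioid precursors were both higher in DMH. *Penk* was at 3.63, 4.10 and 4.49 CPM in SP and at 7.97, 25.4 and 32.5 CPM in DMH, a log2 fold change of 2.53 ± 0.273 (adjusted p = 9.88e-06). The lowest DMH library, female control 1, was the Hox-low piece, and it still lay above every SP library. *Pdyn* was at 1.18, 1.81 and 2.53 CPM in SP and at 5.13, 9.49 and 11.2 CPM in DMH, a log2 fold change of 2.28 ± 0.191 (adjusted p = 1.31e-07). Female control 1 was again the lowest DMH library.

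*Adcyap1* had the smallest adjusted p of the set. It was at 3.15, 3.95 and 4.77 CPM in SP and at 14.2, 16.7 and 18.8 CPM in DMH, a log2 fold change of 2.07 ± 0.0907 (adjusted p = 1.04e-10). Its spread within each region was narrow beside that gap.

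*Gal* was at 0.230, 0.426 and 0.761 CPM in SP and at 0.835, 2.13 and 3.60 CPM in DMH, a log2 fold change of 2.25 ± 0.410 (adjusted p = 3.42e-04). *Trh* was at 0.409, 0.631 and 1.65 CPM in SP and at 1.79, 2.18 and 2.98 CPM in DMH, a log2 fold change of 1.53 ± 0.286 (adjusted p = 2.94e-04). Neither gene overlapped between the regions, but the gap was narrow for both: the highest SP value of *Trh* came from male control 1, as did the lowest DMH value of that gene, and the lowest DMH value of *Gal* from female control 1.

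*Npy* and *Tac1* were higher in DMH with overlapping ranges. *Npy* was at 8.35, 9.92 and 10.8 CPM in SP and at 10.02, 16.9 and 18.8 CPM in DMH, a log2 fold change of 0.71 ± 0.122 (adjusted p = 1.31e-04). *Tac1* was at 5.87, 7.52 and 10.6 CPM in SP and at 7.62, 13.6 and 18.2 CPM in DMH, a log2 fold change of 0.64 ± 0.226 (adjusted p = 0.0256). The DMH libraries inside the SP range were female control 1 for *Npy* and female controls 1 and 2 for *Tac1*.

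*Nts* was the 1 member higher in SP. It was at 10.7, 11.0 and 12.996 CPM in SP and at 2.30, 3.23 and 3.97 CPM in DMH, a log2 fold change of -1.87 ± 0.106 (adjusted p = 1.11e-09). *Sst* was at 30.8, 36.2 and 41.7 CPM in SP and at 31.7, 34.0 and 38.5 CPM in DMH. Its log2 fold change of -0.05 ± 0.0733 (adjusted p = 0.584) did not pass the test, and the ranges overlapped almost fully.

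In *Tfap2b*-/- embryos, 5 DMH against 5 SP libraries, 6 members were higher and 1 lower in DMH, against 36.2% of 17148 genes in either direction. The 6 were *Cartpt* (log2 fold change 4.83), *Trh* (2.57), *Pdyn* (2.22), *Adcyap1* (2.14), *Gal* (2.11) and *Penk* (1.77), and *Nts* was lower at -1.70. Again 7 members did not overlap between the regions, against 36.7% of all genes. The median log2 fold change was 1.94 over the members and -0.0109 over all genes. Sensory ganglia markers summed to 11.6 to 14.7 CPM in SP and 27.5 to 102 CPM in DMH of these embryos. Their part in the differences was not tested.

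The members outside that count were those nearest to 0 in controls. *Npy* gave a log2 fold change of 0.08 ± 0.220 (adjusted p = 0.795) and *Tac1* of 0.03 ± 0.190 (adjusted p = 0.920). *Sst* was at 33.2, 35.6, 43.6, 49.8 and 51.8 CPM in SP and at 28.2, 28.6, 29.99, 33.0 and 38.4 CPM in DMH. Its log2 fold change of -0.45 ± 0.135 passed the FDR (adjusted p = 0.0160) but not the fold threshold.

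These 5 mutants include 3 with a Hox-low DMH piece. With only the embryos whose DMH piece was Hox-rich, male mutants 1 and 3, 8 members passed, against 38.9% of 16852 genes. The log2 fold change was then 2.51 for *Penk*, 2.82 for *Gal* and -0.53 for *Sst*. For *Sst* these embryos hold the highest SP values of the mutants, 49.8 and 51.8 CPM, and also the highest DMH values, 33.0 and 38.4 CPM, and their SP libraries differ from others in the marker sums given further on. *Npy* and *Tac1*, at 0.16 and 0.35, did not pass. With female mut3 included the difference for *Trh* was 1.97. Without both libraries of male mutant 2 the fitted difference for *Cartpt* was 5.79, and the SP library of that embryo holds the largest SP count of this gene, 15.

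Whether the region difference itself depended on genotype was tested as an interaction over 22 libraries. The fit had no term for Hox content, and Hox-low pieces were 3 of the 5 mutant and 1 of the 6 control DMH libraries. Genotype and Hox content are therefore partly confounded in it. None of the 10 members passed, against 0.00565% of 17684 genes. An unadjusted p under 0.05 was reached by 3 members and by 2.06% of all genes. These were *Sst* (-0.40 ± 0.152), *Npy* (-0.61 ± 0.261) and *Trh* (1.06 ± 0.404), each with an adjusted p of 0.999 by edgeR. *Sst* and *Npy* had their highest SP values in male mutants 1 and 3, whose SP libraries differ in the marker sums given further on. The part of these libraries and of Hox content in the 3 values was not tested. DESeq2 called 0 members as well, against 0.0339% of all genes.

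**Figure D2:**
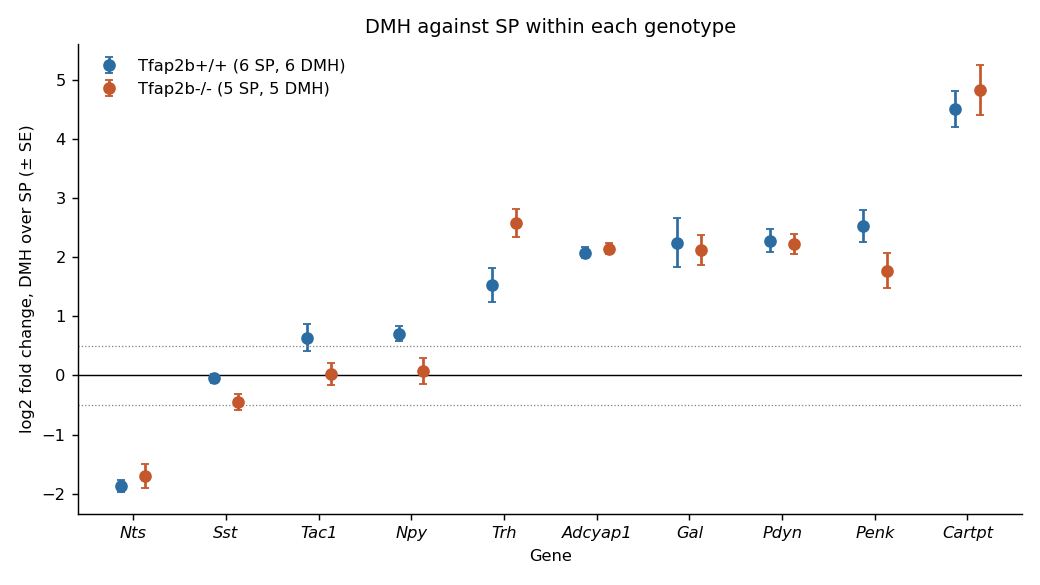
Log2 fold change of DMH over SP with its standard error for the 10 genes, in *Tfap2b*+/+ (6 and 6 libraries) and *Tfap2b*-/- (5 and 5) embryos; dotted lines mark a log2 fold change of 0.5 in either direction. *Nts* lies below 0 in both genotypes, at -1.87 and -1.70, and *Cartpt* is highest, at 4.504 and 4.825.

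The comparison of genotypes in each sex and region, the one the study was built for, asks whether loss of *Tfap2b* changes expression at E14.5. In female SP (2 mutants against 3 controls) 0 members passed, against 0.0181% of 16615 genes. In female DMH (2 against 3) 0 passed, against 0.00596% of 16773. In male SP (3 against 3) 0 passed, against 0.0% of 16562, and in male DMH (3 against 3) 0 passed, against 0.0236% of 16962. *Cartpt* was too low to be tested in SP. DESeq2 called 0 members in each, against 0.0361% and 0.411% of all genes in SP and DMH of females and 0.0423% and 0.0766% in males. At an unadjusted p under 0.05 edgeR listed 2 members in SP and 1 in DMH of females, where 2.58% and 8.9% of all genes were listed, and 0 and 1 in males, where 3.65% and 2.89% were. A p that misses the threshold does not show that values were alike, and the standard errors give the resolution of each comparison.

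The 2 in female SP were *Nts* and *Trh*. *Nts* was at 11.2, 10.9 and 11.3 CPM in the controls and 8.88 and 7.04 CPM in the mutants, a log2 fold change of -0.49 ± 0.114 (adjusted p = 1.00 by edgeR). These groups did not overlap, while in male SP the mutants (15.9, 9.55 and 11.8 CPM) spanned the controls (10.7, 10.7 and 12.996 CPM), at 0.09 ± 0.205.

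*Trh* in female SP was at 0.922, 0.450 and 0.666 CPM in the controls and 0.414 and 0.284 CPM in the mutants, a log2 fold change of -0.99 ± 0.395 (adjusted p = 1.00 by edgeR). In male SP it was at 1.65, 0.596 and 0.409 CPM in the controls and 0.453, 0.574 and 0.352 CPM in the mutants, -0.94 ± 0.552 (adjusted p = 0.967 by edgeR). Those ranges overlapped. With both sexes fitted together *Trh* gave -0.94 ± 0.369 (adjusted p = 0.901 by edgeR), and with female mut3 included, at 1.44 CPM, -0.39.

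In DMH the lone female gene under 0.05 was *Cartpt*, at 4.29, 3.40 and 3.72 CPM in the controls and 4.76 and 6.28 CPM in the mutants (log2 fold change 0.53 ± 0.184, adjusted p = 0.551 by edgeR). Both female mutants are Hox-low pieces, as is the highest of the controls. In male DMH it was *Tac1*, at 18.2, 14.4 and 14.51 CPM in the controls and 12.4, 7.38 and 12.9 CPM in the mutants (-0.52 ± 0.217, adjusted p = 0.870 by edgeR). The lowest of these mutants was the Hox-low piece of male mutant 2.

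*Penk* had the largest difference of any member in female DMH, with no call. It was at 7.97, 23.5 and 25.7 CPM in the controls and 8.19 and 6.35 CPM in the mutants, -1.42 ± 0.626 (adjusted p = 0.568 by edgeR). The 3 low values are the 3 Hox-low female pieces, of either genotype. Without female control 1, which leaves Hox-rich controls against Hox-low mutants, 4 members passed (*Npy*, *Penk*, *Pdyn* and *Cartpt*) along with 1117 of 16848 genes. Genotype and Hox content cannot be told apart in that subset.

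**Figure D3:**
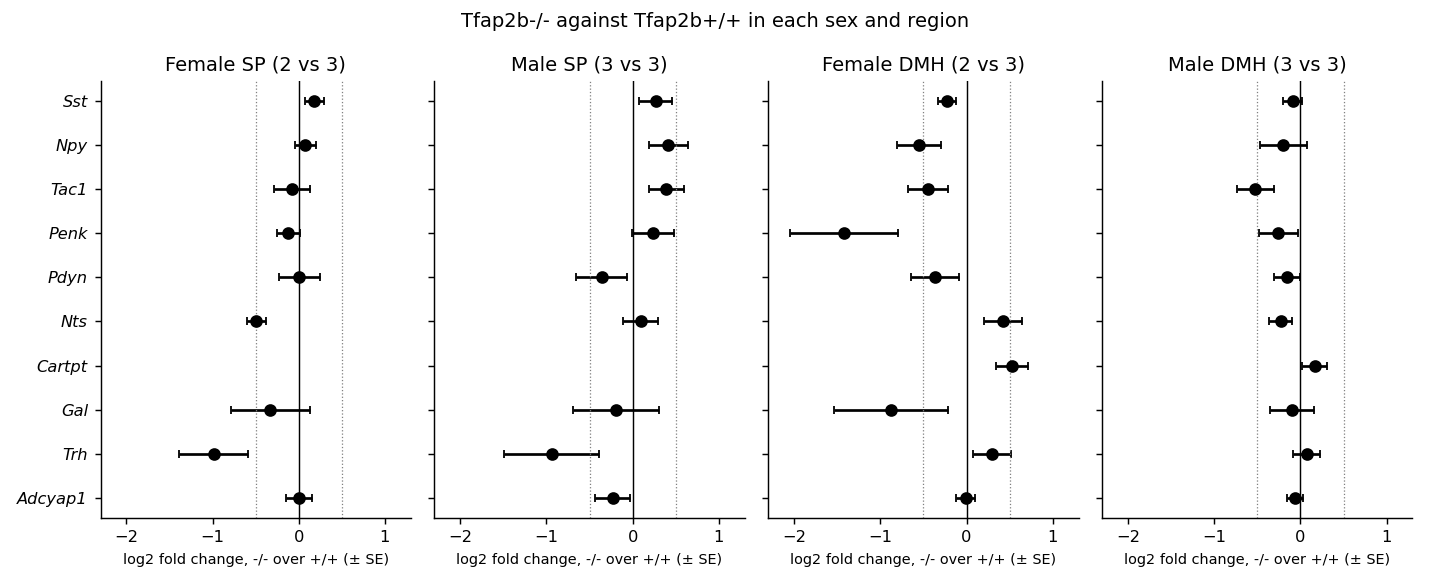
Log2 fold change of *Tfap2b*-/- over *Tfap2b*+/+ with its standard error for the 10 genes in each sex and region; dotted lines mark a log2 fold change of 0.5 in either direction, and *Cartpt* in SP was not tested. No gene passed the thresholds in any of the 4 panels; *Penk* in female DMH lies farthest from 0, at -1.42.

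With both sexes together, SP gave 0 of 9 members tested, against 0.0% of 16973 genes (DESeq2 0 members, against 0.159%), with a median log2 fold change of -0.11 over the members. *Sst* was at 30.8, 36.2 and 41.7 CPM in the 6 controls and at 33.2, 43.6 and 51.8 CPM in the 5 mutants (0.25 ± 0.122, adjusted p = 0.901 by edgeR), and *Npy* at 8.35, 9.92 and 10.8 CPM and at 9.17, 11.0 and 17.7 CPM (0.29 ± 0.157, adjusted p = 0.901 by edgeR). The high libraries of both were male mutants 1 and 3, with *Sst* at 49.8 and 51.8 CPM and *Npy* at 17.7 and 14.4 CPM. In those SP libraries the telencephalic marker sum was 2658 and 1800 CPM, against 1490 to 1840 CPM in the controls. That of cartilage and mesenchyme markers was 380 and 136 CPM, against 365 to 529 CPM, and that of choroid plexus markers 209 and 41.2 CPM, against 295 to 533 CPM. The SP library of male mutant 1 also had the highest unmapped and multimapping shares of all libraries, 9.98% and 7.85%, against at most 7.05% and 5.81% in the others. The part of tissue content and of these read shares in the levels was not tested.

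In DMH with a term for Hox content, 0 of 10 members passed by genotype, against 0.0228% of 17555 genes (DESeq2 0 members, against 0.0684%), and 0 had an unadjusted p under 0.05. The log2 fold changes ran from -0.30 ± 0.173 for *Tac1* to 0.18 ± 0.129 for *Cartpt*. Within Hox-rich pieces alone, 2 mutants against 5 controls, 0 members passed as well, against 0.0228% of 17575 genes. There *Penk* was at 25.9 and 29.5 CPM in the mutants and 23.5 to 32.5 CPM in the controls, and *Npy* at 16.5 and 20.1 CPM and 15.2 to 18.8 CPM. *Penk* in the mutants stayed inside the range of the controls, and for *Npy* 1 of the 2 mutants lay above it. Without the Hox term the fitted genotype difference for *Penk* in DMH was -0.71.

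**Figure D4:**
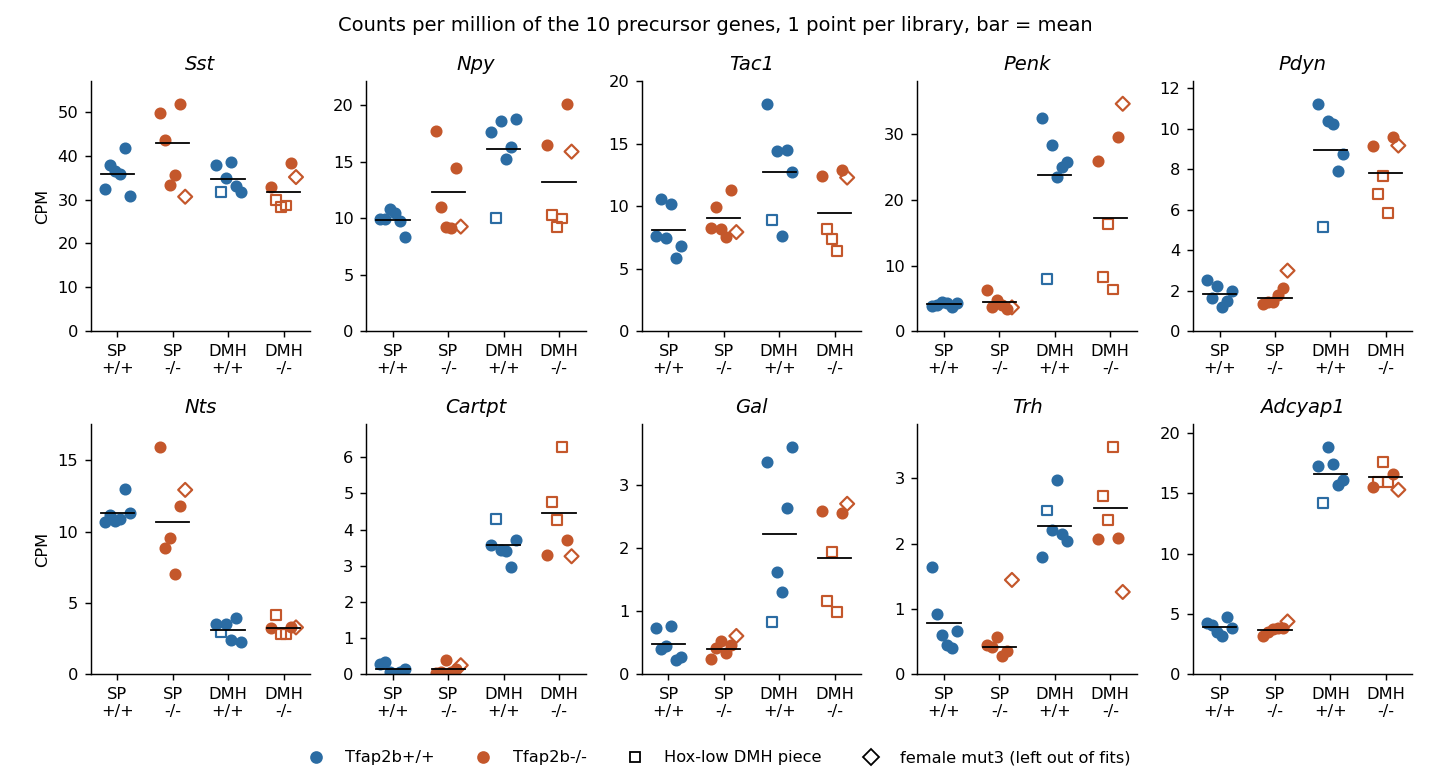
CPM of each gene in every library, by region and genotype (6 libraries each); bars are means without female mut3, open squares are the 4 Hox-low DMH pieces and open diamonds female mut3. Without female mut3, *Penk*, *Pdyn*, *Cartpt*, *Adcyap1*, *Gal* and *Trh* are higher in DMH without overlap in both genotypes, and *Nts* is lower without overlap. Of all genes 40.4% in *Tfap2b*+/+ and 36.7% in *Tfap2b*-/- did not overlap between the regions. The low *Penk* and *Npy* values in DMH are the open squares.

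Hox-low and Hox-rich DMH pieces were compared with genotype and sex as terms, 4 against 7 libraries. All 4 members that passed, *Penk*, *Npy*, *Pdyn* and *Gal*, were lower in Hox-low pieces, against 6.89% of 17555 genes in either direction and 5.6% lower. Without female control 1, the 1 control among the Hox-low pieces, 2 members passed, *Npy* and *Penk*. The median log2 fold change was -0.36 over the members and -0.00464 over all genes.

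*Penk* was at 7.97 CPM in female control 1, 8.19 and 6.35 CPM in female mutants 1 and 2 and 16.4 CPM in male mutant 2. In Hox-rich pieces it was at 23.5, 25.9 and 32.5 CPM (lowest, median, highest). The log2 fold change was -1.26 ± 0.217 (adjusted p = 0.0139). The Hox-low piece with the most Hox RNA, that of male mutant 2, had the highest *Penk* of the 4, and the classes did not overlap within either genotype.

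*Npy* was at 10.02 CPM in female control 1, 10.3 and 9.97 CPM in female mutants 1 and 2 and 9.19 CPM in male mutant 2, a span of little more than 1 CPM. In Hox-rich pieces it was at 15.2, 17.6 and 20.1 CPM. The log2 fold change was -0.88 ± 0.107 (adjusted p = 8.52e-04), the smallest p of the set. Its level in Hox-low DMH pieces lay within the SP range of controls, 8.35 to 10.8 CPM.

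*Pdyn* was at 5.13 CPM in female control 1, 6.78 and 5.86 CPM in female mutants 1 and 2 and 7.66 CPM in male mutant 2, and at 7.90, 9.57 and 11.2 CPM in Hox-rich pieces. The log2 fold change was -0.57 ± 0.151 (adjusted p = 0.0359). It left the thresholds without female control 1 (-0.40, adjusted p = 0.2003), without female control 2 (-0.48, adjusted p = 0.0590) and with female control 2 coded as male (-0.48, adjusted p = 0.116).

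*Gal* was at 0.835 CPM in female control 1, 1.16 and 0.994 CPM in female mutants 1 and 2 and 1.93 CPM in male mutant 2. In Hox-rich pieces it was at 1.31, 2.59 and 3.60 CPM, so the classes overlapped. The log2 fold change of -0.96 ± 0.400 (adjusted p = 0.151) passed the FDR of 0.2 and not that of 0.05. It did not pass in 6 of the 11 fits that left out 1 library.

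*Gal* also moved with markers of sensory ganglia, 8 genes that include *Avil* and *P2rx3*. Their sum was 25.3, 28.9 and 27.5 CPM in the 3 female Hox-low pieces and 93.8 CPM in that of male mutant 2. In Hox-rich pieces it was 31.2 to 134 CPM, with 31.2 CPM in female control 2, the Hox-rich piece with the lowest *Gal*. With this sum as a term in the fit, an alternative added after the data were seen, *Gal* was at -0.47 and did not pass, while *Npy*, *Penk* and *Pdyn* did. With that term 799 genes in all passed, against 1210 without it. Whether ganglia in the pieces account for the *Gal* difference was not tested. *Scn10a*, the marker of that list with the lowest level, was at 0.0759, 0.0414 and 0.0355 CPM in the 3 female Hox-low pieces and at 2.30 CPM in that of male mutant 2. The first 3 values are 2, 1 and 1 counts, under the floor of 3 counts.

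The other 6 members did not pass by Hox content. *Sst* (-0.26 ± 0.0864, adjusted p = 0.0686) did not overlap between the classes, at 28.2, 28.6, 29.99 and 31.7 CPM in Hox-low pieces and 31.8 to 38.5 CPM in Hox-rich ones, but was inside the fold threshold. *Cartpt* went the other way without overlap, at 4.26, 4.29, 4.76 and 6.28 CPM against 2.97 to 3.72 CPM (0.31 ± 0.149, adjusted p = 0.195). *Tac1* (-0.45 ± 0.208, adjusted p = 0.192) was at 6.42 to 8.92 CPM against 7.62 to 18.2 CPM, and passed without female control 2 (-0.67). *Nts*, *Trh* and *Adcyap1* had log2 fold changes of 0.16, 0.11 and -0.05.

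Sums of other tissue markers are given for the same classes. Midbrain and rostral hindbrain markers, 7 genes with *En1*, *En2* and *Pax7* among them, summed to 368 to 423 CPM in Hox-low pieces and 202 to 305 CPM in Hox-rich ones. Hypothalamic markers summed to 136 to 174 CPM and 77.0 to 136 CPM. Telencephalic markers summed to 147 to 210 CPM in Hox-low pieces and 105 to 197 CPM in Hox-rich ones. Blood markers summed to 547 to 1088 CPM in Hox-low pieces and 351 to 769 CPM in Hox-rich ones, cartilage and mesenchyme markers to 569 to 679 CPM and 663 to 848 CPM, and choroid plexus markers to 224 to 541 CPM and 495 to 724 CPM. The part that the mix of tissue has in each of these differences was not tested.

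**Figure D5:**
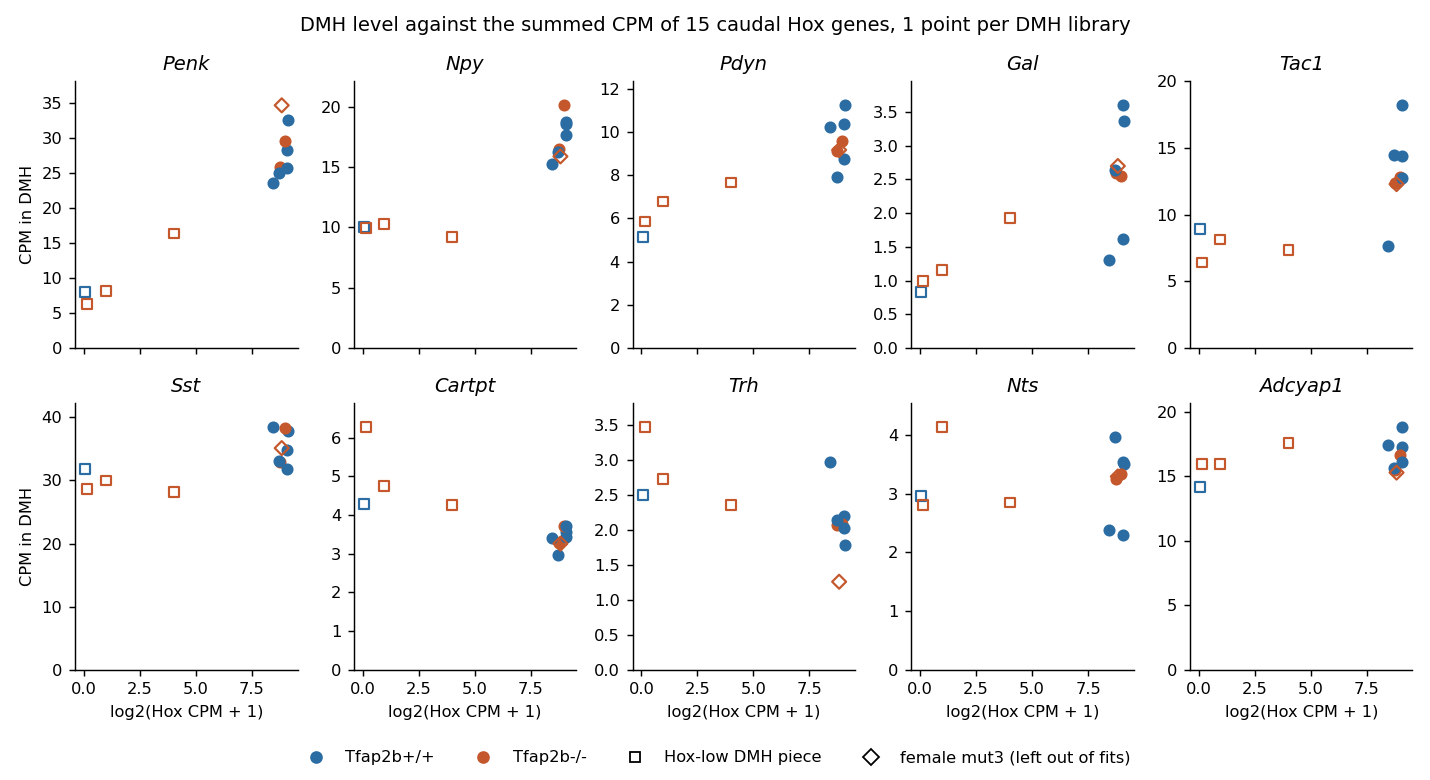
DMH level (CPM) of each gene against log2 of the summed CPM of 15 caudal Hox genes plus 1, 1 point per DMH library; open squares are Hox-low pieces and open diamonds female mut3. *Penk*, *Npy*, *Pdyn* and *Sst* are lower without overlap in the 4 Hox-low pieces, and *Cartpt* is higher without overlap. *Adcyap1* shows no such gap. The share of all genes without overlap between these classes was not computed.

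How far the members followed each other was described over the 12 DMH libraries, which share the dissection, the split by Hox content and female mut3, by Pearson's r of log2 CPM. *Penk* and *Pdyn* reached 0.903, *Npy* and *Penk* 0.864, and *Penk* and *Cartpt* -0.868. In the 12 SP libraries *Sst* and *Npy* reached 0.856. The highest values of both there were in male mutants 1 and 3, whose SP libraries differ in the marker sums given above.

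Over all 24 libraries, with 18089 genes compared, the gene most like each member by the same measure was as follows. *Penk* was closest to *Slc6a5*, the neuronal glycine transporter (0.983), *Trh* to *Sim1*, a hypothalamic transcription factor (0.978), and *Nts* to *Adamts18* (0.975) and *Bcl11b*, a transcription factor of deep layer cortical neurons (0.974). *Pdyn* was closest to *Paqr7* and *Klhl14* (both 0.985), *Adcyap1* to *Prrg3* (0.993) and *Gal* to *Gpr37* (0.960). *Tac1* was closest to *Hoxb9* (0.856), *Npy* to *Fgf13* (0.888) and *Sst* to *Rbfox3*, a marker of neurons (0.761). The most like gene of *Cartpt* was *Gm38534* (0.979). The 24 points share embryos, depth and the split by region.

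Genes of the same pathway were described from lists. Of 36 other neuropeptide precursors, 14 were high enough to be tested between the regions in *Tfap2b*+/+ embryos. Of these, 9 were higher and 3 lower in DMH, against 21.2% and 14.7% of all genes. The counts of the other lists by region in *Tfap2b*+/+ embryos are to be read against the same shares. *Pnoc*, the precursor of nociceptin, was at 20.2 ± 4.58 CPM (SD, n = 6) in DMH and 3.45 ± 1.25 CPM in SP (adjusted p = 6.00e-07). *Calca*, the CGRP precursor, was at 1.41 ± 0.460 and 0.171 ± 0.104 CPM. *Vip*, at 0.538 ± 0.151 CPM in DMH, was near or under the floor in SP, and *Grp*, which encodes gastrin-releasing peptide, was at 1.68 ± 0.447 and 0.659 ± 0.227 CPM. *Prok2* (0.254 ± 0.161 and 0.881 ± 0.170 CPM), *Adm* (1.02 ± 0.227 and 1.57 ± 0.407 CPM) and *Gnrh1* (0.124 ± 0.104 and 0.430 ± 0.219 CPM) were lower in DMH. Values of *Grp*, *Adm* and *Gnrh1* overlapped between the regions. The lowest DMH values of *Prok2* and *Gnrh1*, 0.0358 and 0.0324 CPM, were under the floor. The list's median log2 fold change was 1.25.

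Receptors of the peptides, 19 of 23 tested, were split: 9 were higher and 6 lower in DMH, with a median log2 fold change of 0.20. *Sstr2*, the somatostatin receptor with the highest level here, was at 75.7 ± 11.0 CPM in SP and 12.2 ± 0.548 CPM in DMH (log2 fold change -2.63, adjusted p = 1.40e-11), while *Sst* itself did not pass between the regions. *Ntsr1*, a receptor of neurotensin, was higher in SP, like *Nts*, at 12.0 ± 1.84 and 4.10 ± 0.661 CPM. *Tacr1*, the receptor of substance P, was higher in DMH, like *Tac1*, at 11.3 ± 1.11 against 3.31 ± 0.341 CPM. *Npy1r* (9.45 ± 2.06 and 4.64 ± 0.970 CPM), *Npy5r* (1.02 ± 0.204 and 0.189 ± 0.0580 CPM) and the PACAP receptor gene *Adcyap1r1* (176 ± 17.5 and 117 ± 4.94 CPM) were higher in DMH as well. *Sstr3* and *Vipr1* were lower in DMH, by 2.70 and 2.18 on the log2 scale. In *Tfap2b*-/- embryos *Tacr1* was again higher in DMH (log2 fold change 1.435), while *Tac1* did not pass (0.03).

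Genes of peptide processing and secretion were all tested, 15 of 15, and 10 were higher and 1 lower in DMH (median log2 fold change 0.97). The prohormone convertase gene *Pcsk2* was at 80.0 ± 7.58 CPM in DMH and 18.8 ± 4.64 CPM in SP. The granin genes *Chgb* (128 ± 8.99 and 42.7 ± 5.76 CPM) and *Scg2* (92.4 ± 12.8 and 31.5 ± 5.82 CPM) and *Cpe*, which encodes carboxypeptidase E (611 ± 56.1 and 309 ± 17.8 CPM), were also higher. *Pam*, the peptide amidating enzyme, was the 1 gene lower in DMH, at 85.2 ± 6.04 against 133 ± 6.75 CPM. The same counts in *Tfap2b*-/- embryos were 9 and 4 of 14 for the precursors, 9 and 7 of 19 for the receptors and 10 and 1 of 15 for processing. Of all 17148 genes tested in those embryos, 3489 were higher and 2727 lower in DMH.

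Of the list genes that could be tested by genotype, 10 to 15 precursors, 17 to 19 receptors and 15 processing genes in each of 6 comparisons, 0 passed with edgeR. By Hox content 4 of 15 precursors and 9 of 19 receptors were lower in Hox-low pieces, 0 were higher, and 0 of 15 processing genes passed, against 5.6% lower of all genes. The sensory ganglia sum given above is lower in 3 of the 4 Hox-low pieces than in every Hox-rich one, and with it as a term 799 genes in all passed, against 1210 without. Its part in these list calls was not tested. *Nppc*, a natriuretic peptide precursor, was at 0.473 ± 0.0618 CPM in the 4 Hox-low and 1.82 ± 0.321 CPM in the 7 Hox-rich pieces (log2 fold change -1.83, adjusted p = 1.79e-03). *Calca* (-1.03), *Grp* (-0.64) and *Crh* (-1.03) were the others. *Crh* had an adjusted p of 0.145 by edgeR, and its lowest Hox-low library, at 0.0355 CPM, was under the floor. Among the receptors *Galr1*, for galanin, was at 0.713 ± 0.0998 and 2.41 ± 0.522 CPM (-1.43, adjusted p = 4.21e-03). The opioid receptor genes *Oprm1* (-1.37) and *Oprk1* (-0.59) were lower too, as was *Sstr3* (-1.10).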

How the data were processed

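RNA of SP and DMH from 12 embryos at E14.5 was sequenced as stranded (dUTP) polyA libraries. The authors trimmed reads with cutadapt 2.4, aligned them to mm10 (GRCm38.p6) with STAR 2.6.1d and deposited raw counts per gene, per the labels and the submitters' processing notes, which list edgeR without a version. Rows that name no gene were left out: unmapped 5.46 to 9.98%, multimapping 4.96 to 7.85%, unassigned 4.68 to 7.46% and ambiguous 1.10 to 1.62% of fragments. Counts on the dUTP strand were analysed, unstranded counts were tried as an alternative, and the opposite strand, 1 count column, was not used. Symbols and exon lengths came from GENCODE vM21 (54409 of 54446 identifiers matched). The 250 bases before a start came from RefSeq (GRCm38.p6).

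For every comparison a quasi-likelihood model (edgeR 4.0.16 in R 4.3.3, robust) was fitted across all genes of its own libraries, after TMM scaling and the filterByExpr filter. P-values were adjusted by Benjamini-Hochberg, and a call needed the study's FDR under 0.2 and absolute log2 fold change over 0.5. Fits with both sexes had sex as a covariate, and Hox content was fitted beside genotype. SE was taken from the fold change and its F statistic. As in the study, the embryo female mut3 did not enter. Alternatives were DESeq2 1.42.0, other scaling, filters, thresholds and blocks, and leaving out each library, or each embryo with both its libraries in the region and interaction fits. CPM per kb uses the summed exon length of a gene. Likeness was Pearson's r of log2 CPM with a prior count of 2. Plots came from matplotlib 3.10.9 (Python 3.11.15).

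Members and lists were chosen with earlier results of these data known. All 10 members are named. Of each list, the called genes with the lowest p are named, at most 4 higher and 4 lower, by region in controls and by Hox content, and all 10 members have their most alike genes named. Libraries of a group were separate embryos, and no pair was a copy of another (lowest chi-square per gene 9.62 over 24 pairs). SP and DMH share an embryo: deviations from the group means of the 2 libraries of an embryo correlated at 0.102 to 0.521 in all 12 embryos, and each correlated best with its own number. With the embryo as a block the region comparisons called the same number of members.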

Additional observations from a re-analysis of the deposited data

Results flagged for a closer look

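Within the 40 groups of a gene, region and genotype with both sexes together (5 or 6 libraries), 3 had a library set apart from the rest by Dixon's criterion, and chance sets 1 apart in about 20. *Nts* in male control 3 SP was at 12.996 CPM, with the other 5 SP controls at 10.7 to 11.3 CPM. *Cartpt* in male mutant 2 SP was at 0.391 CPM, from 15 counts, with the other 4 SP mutants at 0.0412 to 0.141 CPM. *Penk* in female control 1 DMH was at 7.97 CPM, with the other 5 DMH controls at 23.5 to 32.5 CPM; this is the control whose DMH piece was Hox-low, at 0.0380 CPM of caudal Hox RNA.

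In female mut3, the embryo left out of the reported fits and included only in alternatives, *Penk* in DMH was at 34.6 CPM, above the 7.97 to 32.5 CPM of the controls, and *Pdyn* in SP at 2.99 CPM, above the 1.18 to 2.53 CPM of the controls. Its DMH library carries the muscle and cartilage transcripts given in the report.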

How the results depend on the processing

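Of 156 counts of members called under an alternative, 152 stayed within 1.5 times the count reported, 2 were higher and 2 lower. The region comparisons gave 9 members in *Tfap2b*+/+ and 7 or 8 in *Tfap2b*-/- under every alternative run, embryo block included. The genotype comparisons and the interaction gave 0 under every alternative, except in female DMH. There 2 members (*Npy* and *Cartpt*) passed without a filter on low counts, and 0 to 4 over the fits that left out 1 library, with 4 without female control 1. By Hox content 2 members passed with the replicate block (*Npy* and *Pdyn*, while *Penk* kept its log2 fold change of -1.26 at an adjusted p of 0.205 by edgeR) and 2 to 4 over the fits that left out 1 library, with 2 (*Npy* and *Penk*) without female control 1. The cause of these changes was not tested. With an FDR under 0.05 the count was 3, with female mut3 included 5, and with female control 2 coded as male 4, of which *Tac1* was 1 and *Pdyn* was not.

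Replicate numbers did not pair the genotypes: deviations of same-numbered libraries correlated at -0.199 to 0.552, and 7 of 12 correlated best with their own number. The replicate block moved the count over all genes from 3 to 71 in female SP, from 1 to 41 in female DMH, from 4 to 8 in male DMH and from 1210 to 636 by Hox content.

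The count over all genes moved by more than 1.5 times in other fits too, not all of which are listed. With DESeq2 it was 6 and 69 in SP and DMH of females, 7 and 13 in those of males (0 and 4 by edgeR), 27 in SP of both sexes (0), 12 in DMH by genotype (4) and 6 for the interaction (1). Without a filter it was 25 and 535 in SP and DMH of females, 1 and 17 in those of males, 12 in SP of both sexes and 81 in DMH by genotype. By Hox content it was 546 at an FDR under 0.05, 2335 with female mut3 and 799 with the ganglia term, and without male mutant 2 or female control 3 it was 775 or 739. Without male control 3 it was 8 in male SP and 16 in male DMH. Without male mutant 2 it was 7 in male DMH, 8 in DMH by genotype and 5 for the interaction. Without female control 3 it was 7 in female DMH.

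Signs that turned belong to differences near 0 that passed no test, apart from *Gal* by Hox content. With the replicate block *Gal* by Hox content was at 0.044 and *Nts* at -0.076, and with the ganglia term *Trh* was at -0.0063. For DMH by genotype the block gave *Nts* 0.016, *Gal* -0.086 and *Adcyap1* 0.024. With female mut3 that comparison gave *Npy* -0.00096, *Penk* 0.18, *Nts* 0.073 and *Trh* -0.17. Without the Hox term it gave *Npy* -0.35, *Pdyn* -0.25, *Nts* 0.0498 and *Gal* -0.38. In Hox-rich pieces alone *Sst* was at 0.018 and *Pdyn* at -0.064, with female control 2 coded as male *Nts* at 0.0497, and with the Hox level as a number *Adcyap1* at 0.00083. In SP of both sexes *Pdyn* was at 0.028 with female mut3.

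Leaving out 1 library at a time, DMH by genotype ran from -0.11 to 0.026 for *Sst*, -0.047 to 0.12 for *Npy*, -0.18 to 0.0095 for *Penk*, -0.097 to 0.12 for *Pdyn*, -0.15 to 0.057 for *Nts*, -0.10 to 0.21 for *Gal* and -0.11 to 0.055 for *Adcyap1*. By Hox content it ran from -0.0038 to 0.24 for *Trh* and -0.13 to 0.072 for *Adcyap1*, and in SP by genotype from -0.047 to 0.19 for *Penk*. By region, leaving out 1 embryo with both its libraries, it ran from -0.10 to 0.011 for *Sst* in *Tfap2b*+/+, and from -0.019 to 0.17 for *Npy* and -0.096 to 0.11 for *Tac1* in *Tfap2b*-/-. Depth limits *Cartpt* in SP, at 0 to 15 counts, and *Gal* and *Trh* there, at 6 and 10 counts in their lowest libraries.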
